A study of Mus musculus with 72 samples.

Results

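The 10 genes described here encode enzymes of glycolysis: the hexokinases Hk1 and Hk2, the glucose-6-phosphate isomerase Gpi1, the phosphofructokinases Pfkl and Pfkp, the aldolase Aldoa, the phosphoglycerate kinase Pgk1, the enolase Eno1, the pyruvate kinase Pkm and the lactate dehydrogenase Ldha. They were chosen as a pathway and taken by symbol, each through its Ensembl transcript with the highest total count, and they are 10 of 45321 genes in the annotated tables. All 10 passed the filter on low counts that left 18273 genes for testing. The samples were mouse embryonic stem cells with and without functional Nup133, a subunit of the Y-complex that scaffolds the nuclear pore, and the design compares them in the pluripotent state and during early neuroectodermal differentiation.

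Each of the 6 groups held 3 biological samples, and each sample was the sum of 4 technical libraries, 72 libraries in all. The controls were 2 cultures of HM1 (Nup133+/+, 40 chromosomes, XY) and 1 of the blastocyst-derived line 1A4 (Nup133+/+, Sox1gfp/+, 40 chromosomes, XY). The knockout (KO) samples were lines 14 and 19, derived from HM1 with CRISPR/Cas9 (Nup133-/-, XY, with 40 chromosomes, likely so for line 19), and the blastocyst-derived line 319 (Nup133merm/merm, Sox1gfp/+, 42 chromosomes, XX, with extra chromosomes 8 and 12). Every KO replicate is therefore a different line, lines and genotype cannot be fully separated, and the Sox1gfp allele is carried by 1A4 and 319 alone. Cells at day 0 came from serum and LIF medium on mouse embryonic fibroblast feeders that were removed by plating for 20 minutes. Day 2 cells had been moved to N2B27, a serum-free medium, with LIF left out. Day 3 cells had been given 1 µM all-trans retinoic acid for the last day. The labels call the HM1 pairs biological replicates and give the other replicates as separate lines, without saying how the cultures were kept apart, so the p-values measure the spread between these samples.

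Samples held between 16466730 and 54386782 gene counts. Nup133 lay between 180 and 323 CPM (counts scaled to library size) in the controls and between 14.3 and 37.1 CPM in the KO samples, and the groups did not overlap. The pluripotency markers summed to between 4957 and 5213 CPM in control and between 5596 and 6555 CPM in KO samples at day 0, with none of the 8 at 0. One sample stood apart. Line 19 at day 2 had the fewest counts, the largest share of counts on identifiers without annotation (2.46%, against at most 1.72% elsewhere) and the lowest scaling factor (0.806). It was the highest of all 18 samples for 6 members (Gpi1, Pfkl, Aldoa, Eno1, Pkm and Ldha) and the lowest for Hk1, and results that rest on it are given below with and without it.

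Glycolysis splits glucose into pyruvate in the cytosol and yields ATP without oxygen, and lactate dehydrogenase turns pyruvate into lactate while restoring NAD+. Hexokinase and phosphofructokinase catalyse the early, committed steps that spend ATP, and phosphoglycerate kinase and pyruvate kinase the late steps that return it. Several steps are shared between isozymes with different tissue distribution: Hk2 and Ldha are known targets of hypoxia-inducible factor and Myc, Hk1 is the broadly expressed housekeeping hexokinase, and pluripotent cells in general are known for high glycolytic flux that changes with differentiation.

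Of the members that moved with time, Hk2, Pfkp and Ldha are shown here, with Pgk1 and Eno1, which stood higher in the KO lines at day 2. Other members moved as well, and Pkm, which fell over the last day in both genotypes, is not shown. The windows before the starts of the 5 shown members are printed. Each is the 250 bases before 1 RefSeq start (GRCm38.p6, 5′ to 3′ on the gene's strand), and capitals mark ACGTG or GCGTG read on either strand, the core letters to which hypoxia-inducible factors bind. Hk2 is at chr6:82774455-82774704 (minus strand), Pfkp at chr13:6648772-6649021 (minus), Pgk1 at chrX:106186850-106187099 (plus), Eno1 at chr4:150236458-150236707 (plus) and Ldha at chr7:46845554-46845803 (plus).
Hk2: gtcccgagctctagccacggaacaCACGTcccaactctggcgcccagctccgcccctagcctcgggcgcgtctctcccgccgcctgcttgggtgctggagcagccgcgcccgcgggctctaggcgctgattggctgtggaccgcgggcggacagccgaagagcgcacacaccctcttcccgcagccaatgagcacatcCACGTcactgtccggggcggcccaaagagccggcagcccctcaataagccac
Pfkp: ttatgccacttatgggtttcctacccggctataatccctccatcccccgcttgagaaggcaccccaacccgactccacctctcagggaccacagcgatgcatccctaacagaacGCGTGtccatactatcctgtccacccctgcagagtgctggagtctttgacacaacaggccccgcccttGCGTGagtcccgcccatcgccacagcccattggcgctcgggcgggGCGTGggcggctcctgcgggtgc
Pgk1: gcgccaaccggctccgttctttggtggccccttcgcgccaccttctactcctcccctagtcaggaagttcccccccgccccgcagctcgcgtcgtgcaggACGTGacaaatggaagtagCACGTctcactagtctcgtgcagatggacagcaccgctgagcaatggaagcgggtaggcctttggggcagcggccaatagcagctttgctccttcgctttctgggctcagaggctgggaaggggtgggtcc
Eno1: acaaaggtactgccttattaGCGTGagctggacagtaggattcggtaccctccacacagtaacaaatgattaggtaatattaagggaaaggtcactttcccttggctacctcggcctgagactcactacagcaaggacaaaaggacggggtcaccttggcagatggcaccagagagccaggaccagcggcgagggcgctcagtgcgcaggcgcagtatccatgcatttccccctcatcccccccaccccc
Ldha: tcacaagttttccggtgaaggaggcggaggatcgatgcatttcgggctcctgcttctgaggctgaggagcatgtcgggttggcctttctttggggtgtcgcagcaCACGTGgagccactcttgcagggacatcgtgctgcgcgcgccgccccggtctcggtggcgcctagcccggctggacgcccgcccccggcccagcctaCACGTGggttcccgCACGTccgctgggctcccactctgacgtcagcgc
At 1 start per gene, ACGTG occurred in 3 of the 10 members (Hk2, Pgk1 and Ldha), against 16.6% of 32851 promoter windows of the same length. GCGTG occurred in 3 others (Pfkl, Pfkp and Eno1), against 28.2% of windows. The palindrome CACGTG, which contains ACGTG and is bound by Myc and Max, was found in Ldha alone among the members, where it stands at 2 places, against 6.02% of windows. Either core was thus present in 6 of 10 members, against 38.6% of windows, and absent at the start used for Hk1, Gpi1, Aldoa and Pkm. GGGCGG, the letters of the GC box, was found in 6 of 10, against 32.7%. Other listed starts of Hk1, Aldoa, Eno1, Ldha and Pkm hold a core as well. Other starts of Aldoa and Eno1 also hold GGGCGG, which the windows used for these genes lack. For Hk1, Aldoa and Eno1 the start used here lies away from the start of the transcript that gave the counts. A match describes letters only.

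Levels differed widely between the steps (CPM per kilobase of transcript, mean over the 18 samples). Pkm was highest at 1216, followed by Aldoa at 985, Ldha at 854 and Eno1 at 557. Gpi1 at 201, Pgk1 at 161 and Pfkl at 124 formed a middle range, and Hk2 at 43.7, Pfkp at 32.9 and Hk1 at 10.9 were lowest. The hexokinases and phosphofructokinases were thus the 4 lowest genes, and Pkm, Aldoa, Ldha and Eno1 the 4 highest. In the day 0 controls the ranges of Aldoa and Ldha overlapped, and those of the other neighbours in the order did not. By day 3 the ranges of Aldoa and Pkm, of Ldha and Eno1, of Pfkl and Pgk1 and of Pfkp and Hk1 overlapped in the controls.

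Summed over the 10 genes, the level in the controls was 9437, 9219 and 9047 CPM at day 0 in the HM1 cultures and line 1A4. It was 7916, 7761 and 8594 CPM at day 2 and 5706, 5624 and 6778 CPM at day 3. In lines 14, 19 and 319 the sum was 10650, 11000 and 10350 CPM at day 0, 9276, 13860 and 10760 CPM at day 2, and 6662, 5487 and 7739 CPM at day 3. The KO samples all lay above the controls at days 0 and 2, and overlapped them at day 3. As bulk RNA, these values cannot tell fewer cells of a type from less RNA per cell.

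**Figure D1:**
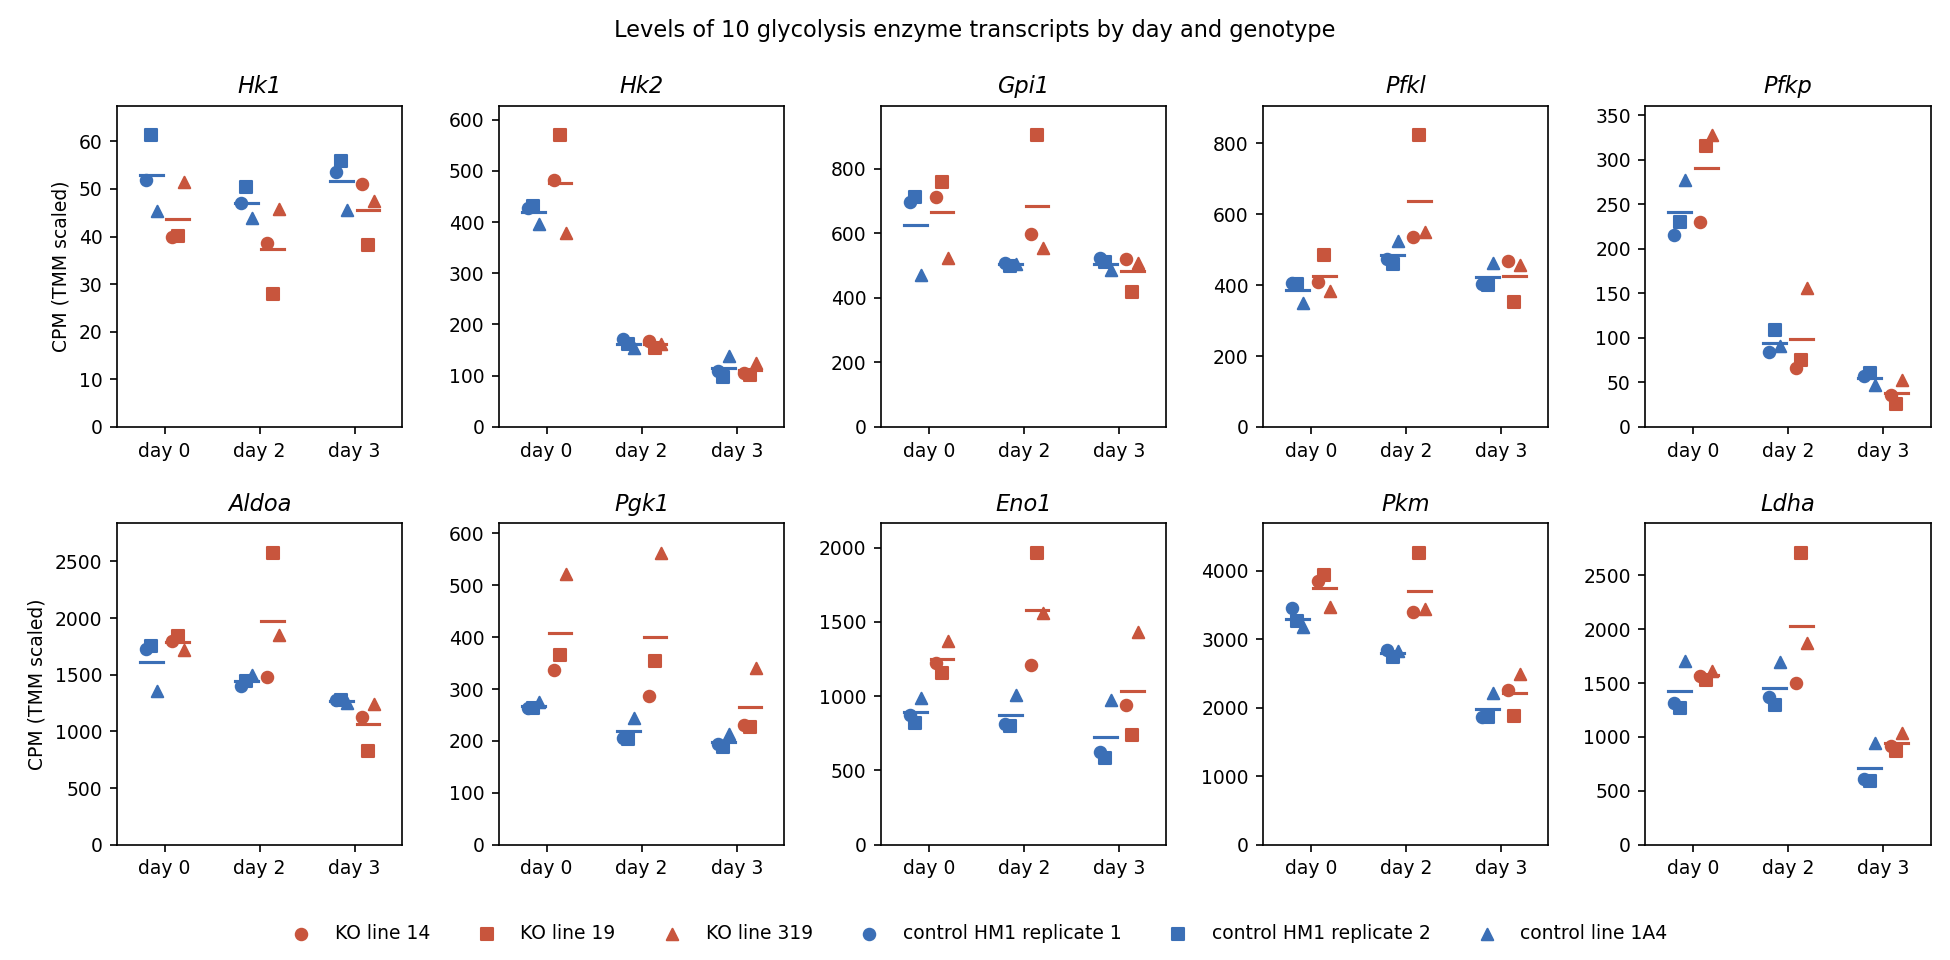
CPM (scaled by TMM) of the 10 enzymes in each sample, by day on the x axis, with controls in blue, KO lines in red and bars at the group mean of 3 samples. Hk2 and Pfkp drop between day 0 and day 2 in both genotypes, Pgk1 and Eno1 lie higher in the KO samples at day 2, and line 19 at day 2 is the top point for 6 genes.

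From day 0 to day 2, when LIF and serum were withdrawn, the controls lost Hk2 and Pfkp, and the other 8 members did not pass the test. Of all 18273 genes, 35.2% were called in this comparison (adjusted p below 0.05, edgeR quasi-likelihood test with Benjamini-Hochberg adjustment), 19.7% as higher and 15.5% as lower, so 2 of 10 is near the background. The median log2 change of the members was -0.20, beside 0.01 over all genes.

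Hk2, the inducible hexokinase, stood at 428, 431 and 397 CPM in the day 0 controls and at 171, 163 and 154 CPM at day 2. Every day 2 sample was below every day 0 sample, a log2 change of -1.36 ± 0.16 (SE, adjusted p = 2.1e-05 by edgeR). In lines 14, 19 and 319 it went from 483, 570 and 378 CPM to 168, 154 and 162 CPM, a log2 change of -1.56 ± 0.16 (adjusted p = 6.0e-06 by edgeR). Hk2 at day 2 lay between 154 and 171 CPM in the 6 samples of both genotypes.

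Pfkp, the platelet-type phosphofructokinase, showed the same course. Its levels were 215, 230 and 278 CPM at day 0 and 84.1, 109 and 91.1 CPM at day 2 in the controls, a log2 change of -1.33 ± 0.26 (adjusted p = 0.0010 by edgeR). The KO lines went from 230, 315 and 328 CPM to 65.8, 75.5 and 156 CPM, a log2 change of -1.61 ± 0.26 (adjusted p = 0.00023 by edgeR). Line 319 kept the highest level at day 2, above every control. Pfkp overlaps Pitrm1, a mitochondrial protease gene on the opposite strand with a mean of 192 CPM. Whether strand was used in the counting is not given in the sources used here, but Pitrm1 itself did not pass the test over this interval (log2 change 0.16 in controls and -0.04 in KO lines, adjusted p = 0.40 and 0.85 by edgeR).

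Pfkl, the liver-type phosphofructokinase, had positive changes in both genotypes and passed the test in the KO lines alone. In the KO lines it was at 409, 486 and 383 CPM at day 0 and at 534, 823 and 549 CPM at day 2, and the ranges did not overlap. The log2 change was 0.58 ± 0.17 (adjusted p = 0.018 by edgeR). In the controls Pfkl went from 405, 404 and 351 CPM to 473, 460 and 524 CPM, again without overlap, a log2 change of 0.33 (adjusted p = 0.16 by edgeR). The difference between genotypes in this change was 0.25 ± 0.25 (adjusted p = 0.84 by edgeR). Without line 19 at day 2 the control change was 0.34 with adjusted p = 0.027, and without line 19 at all days 0.35 with adjusted p = 0.0064. Those fits called 46.2% and 47.4% of all genes in this control comparison, against 35.2% in the main fit. The KO call for Pfkl was lost without control replicate 1 (adjusted p = 0.052), without line 14 (0.050) and with HM1-derived lines only (0.053). Of the KO lines' changes, 35.9% of all genes were called, 20.8% as higher and 15.1% as lower.

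The remaining enzymes did not pass the test between day 0 and day 2 in either genotype. Their control changes ran from -0.30 for Pgk1 to 0.03 for Ldha, and their KO changes from -0.22 for Hk1 to 0.37 for Ldha (log2). A change that misses the threshold is not shown to be absent.

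**Figure D2:**
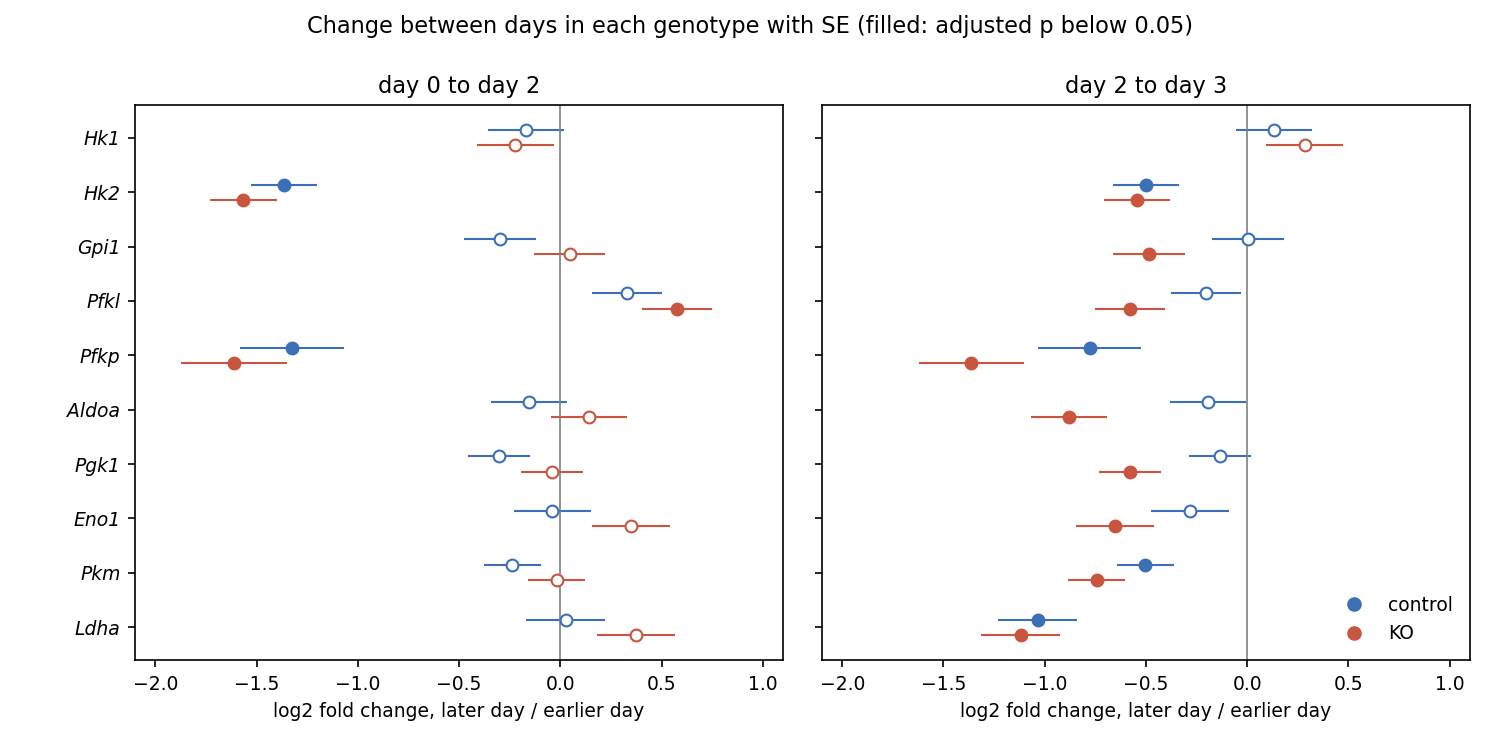
Log2 fold change with SE of each enzyme from day 0 to day 2 (left) and from day 2 to day 3 (right), controls in blue and KO lines in red, filled where the adjusted p was below 0.05. Hk2 and Pfkp are filled and far left in the first panel in both genotypes, and in the second panel 9 KO points and 4 control points are filled.

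In isozyme terms the changes altered the make-up of the first 2 control points of the pathway. Per length of transcript, Hk2 made up 85.7% ± 1.3 (SD, n = 3) of the summed level of the 5 hexokinase genes in the day 0 controls, 72.5% ± 1.2 at day 2 and 57.1% ± 7.5 at day 3. Hk1 took 13.9%, 27.1% and 33.3%, while its own mean was 52.9, 47.1 and 51.6 CPM. At day 3 Hkdc1, a hexokinase-domain gene, reached 4.39% from 0.076% at day 2. The KO lines had a Hk2 share of 88.8% ± 3.9, 76.7% ± 3.9 and 58.1% ± 5.2.

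Pfkp made up 32.9% ± 4.3 of the 3 phosphofructokinase genes in the day 0 controls, 11.8% ± 1.8 at day 2 and 8.66% ± 1.5 at day 3. Its share in the KO lines was 35.1% ± 5.0, 10.6% ± 6.0 and 6.27% ± 1.8. Pfkm, the muscle-type subunit, rose from 42.4 to 116 CPM in the controls between day 0 and day 2 and its share from 8.34% to 20.9%, and Pfkl went from 58.7% to 67.3% and then 73.6%. At the other steps 1 isozyme held most of the level in every group: Aldoa at least 97.5%, Eno1 at least 92.2%, Pkm at least 99.87% and Ldha at least 73.5%, as group means. The enolase share is over Eno1, Eno2 and Eno3 and leaves out the near copy Eno1b, whose level averaged 16.9% of that of Eno1.

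**Figure D3:**
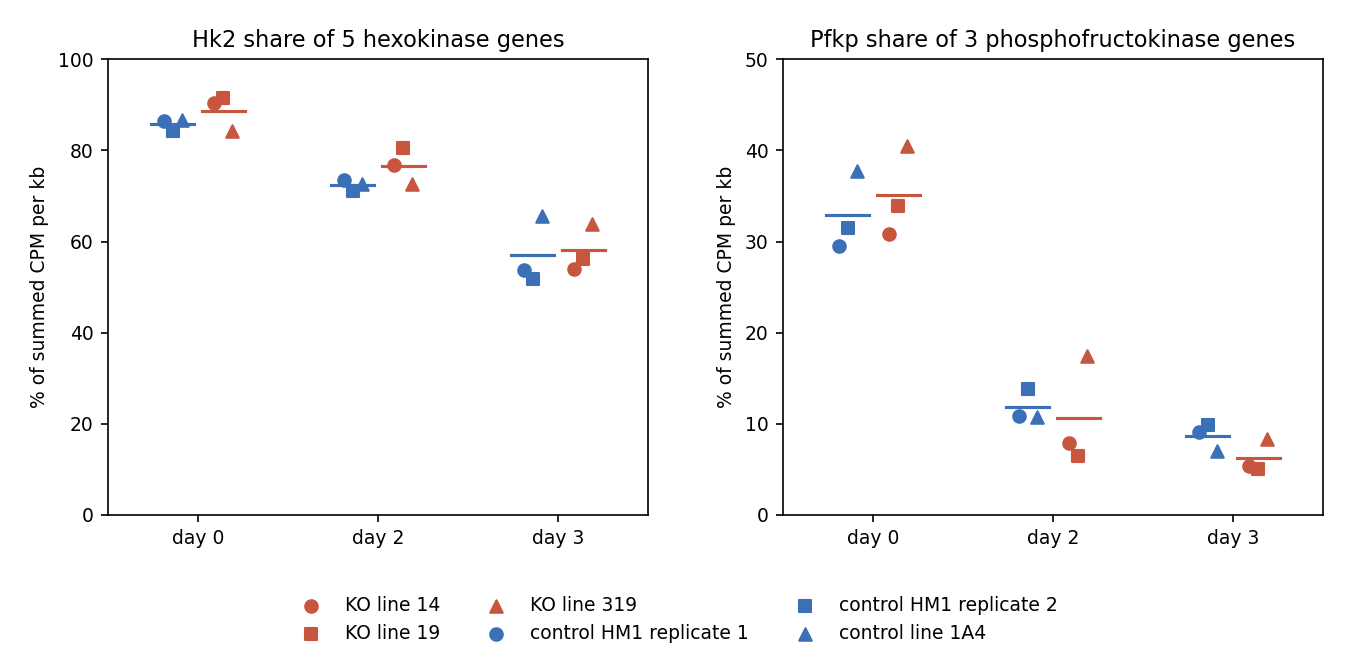
Share of the summed CPM per kilobase held by Hk2 among 5 hexokinase genes (left) and by Pfkp among 3 phosphofructokinase genes (right), in percent, per sample with bars at the group mean; the right axis ends at 50%. Both group means are lower at each later day, and the ranges of control and KO samples overlap at every day.

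During the last day, with retinoic acid, 4 of 10 members fell in the controls: Hk2, Pfkp, Pkm and Ldha. All genes were called at 21.4%, 8.92% as lower. The members' median log2 change was -0.24, beside 0.00 over all genes. Pkm, which makes pyruvate and ATP, went from 2844, 2740 and 2826 CPM to 1859, 1859 and 2213 CPM with no overlap (log2 change -0.50 ± 0.14, adjusted p = 0.017 by edgeR). Ldha, the lactate-forming enzyme, went from 1370, 1292 and 1698 CPM to 609, 591 and 948 CPM (log2 change -1.03 ± 0.20, adjusted p = 0.0015 by edgeR). The groups did not overlap for Ldha either. Hk2 went to 109, 97.8 and 139 CPM (-0.50, adjusted p = 0.038 by edgeR) and Pfkp to 56.8, 60.7 and 46.9 CPM (-0.78, adjusted p = 0.040). Pitrm1, the overlapping neighbour of Pfkp, changed by -0.51 in the same interval (adjusted p = 0.013), and its part in the Pfkp value was not tested. Cell type markers moved over the same days in the controls. The summed pluripotency markers went from 4957 to 5213 CPM at day 0 to 1420 to 1550 and 618 to 722 CPM, the 5 neural progenitor markers from 59.0 to 163 CPM to 217 to 275 and 292 to 347 CPM, and the 6 primitive endoderm markers from 11.9 to 19.2 CPM to 18.6 to 19.8 and 52.6 to 59.8 CPM (ranges at days 0, 2 and 3). Their part in the day changes was not tested.

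The adjusted p of the control calls of the last day moved across the threshold in several settings, with fold changes of similar size (Pkm -0.45, -0.48 and -0.59 without control replicates 1, 2 and 1A4, Ldha -0.97 without replicate 1). With the line series as a replicate block, Hk2 did not pass (adjusted p = 0.060), nor without a filter on low counts (0.068). Pfkp did not pass without the background term (0.071) or with the longest transcript (0.062). No member passed without control replicate 1 (Ldha adjusted p = 0.053, Pfkp 0.16, Pkm 0.22 and Hk2 0.32). Ldha alone passed without control replicate 2, where Hk2 stood at 0.36, Pfkp at 0.22 and Pkm at 0.21. Pfkp (0.087) and Pkm (0.055) were lost without control line 1A4, and Hk2 (0.071) and Pfkp (0.053) without line 14. Directions were the same in each case.

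In the KO lines, 9 of 10 members fell over the same interval, every one except Hk1. Of all genes 33.6% were called, 17.6% as higher and 16.0% as lower. The members' median log2 change was -0.62, beside 0.00 over all genes. Ldha went from 1497, 2709 and 1868 CPM in lines 14, 19 and 319 to 918, 867 and 1040 CPM (log2 change -1.12 ± 0.20, adjusted p = 0.00061 by edgeR). Pfkp went to 35.6, 25.4 and 52.5 CPM, with a log2 change of -1.36 ± 0.26 (adjusted p = 0.0011 by edgeR). Pkm went from 3392, 4265 and 3449 CPM to 2261, 1887 and 2495 CPM (-0.74 ± 0.14, adjusted p = 0.0011). No day 3 KO sample reached the day 2 KO range for any of the 3.

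Aldoa, which cleaves fructose-1,6-bisphosphate, went from 1484, 2578 and 1852 CPM to 1131, 832 and 1244 CPM in the KO lines (log2 change -0.88 ± 0.19, adjusted p = 0.0026 by edgeR). The smaller decreases were those of Eno1 (-0.65, adjusted p = 0.017), Pfkl (-0.58, 0.019), Pgk1 (-0.58, 0.0098), Hk2 (-0.54, 0.018) and Gpi1 (-0.49, 0.046). Hk1 had a log2 change of 0.28 (adjusted p = 0.26). Line 19 at day 2 carries part of this: without that sample 7 of 10 fell, Gpi1 (-0.29, adjusted p = 0.15) and Pfkl (-0.36, 0.051) no longer passing. Without line 19 at all days 6 fell, with Gpi1 at -0.17 (adjusted p = 0.38), Pfkl at -0.24 (0.12) and Eno1 at -0.25 (0.17). Over all genes, 6055 of 18911 were called without line 19 at day 2, against 6141 of 18273 in the main fit. Without line 19 at all days it was 5242 of 18771 (27.9%). Gpi1 was also lost under the replicate block (0.083) and when any one of the other samples' series was left out except line 319 (adjusted p from 0.061 to 0.10), as well as without the background term (0.062) and without a filter on low counts (0.086). Pfkl was lost without control replicate 1 (0.056) or 2 (0.053), and Hk2 without control replicate 1 (0.053) or line 14 (0.12). Without the background term Pgk1 (0.056) and Eno1 (0.065) were lost.

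The difference between genotypes in these day changes was tested directly and no member passed. For the change of the KO effect from day 2 to day 3, the lowest adjusted p was 0.53 (Aldoa, difference -0.69 ± 0.27 on the log2 scale), with 7 of all genes called (0.0383%). From day 0 to day 2 the lowest was 0.79, with 0.0219% of genes called, and from day 0 to day 3 it was 0.38 (Pfkp, -0.87 ± 0.36), with 0.427% called, 0.394% as higher and 0.0328% as lower. At an unadjusted p below 0.05 the numbers of members were 1, 0 and 1 in that order, beside 8.9%, 7.16% and 10.9% of all genes. DESeq2 called 0 members in each, beside 0.733%, 0.385% and 2.45% of all genes. The counts of 9 and 4 thus do not show that the KO lines lost more of the enzymes than the controls.

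At day 0 no member differed between KO and control samples after adjustment, while 0.854% of all genes were called. Of the members 2 passed at an unadjusted p below 0.05 (Pgk1 and Eno1), beside 10.6% of all genes, and DESeq2 called 1 (Pgk1, adjusted p = 0.015), beside 3.21%. The log2 difference was positive for 9 of 10, with a median of 0.17 beside 0.01 over all genes. Pgk1 stood at 263, 264 and 276 CPM in the controls and at 337, 366 and 521 CPM in lines 14, 19 and 319, a log2 difference of 0.58 ± 0.15 (adjusted p = 0.11 by edgeR). Eno1 stood at 873, 820 and 986 CPM against 1226, 1156 and 1372 CPM (0.49 ± 0.19, adjusted p = 0.33). Without line 19 at day 2, Pgk1 passed at day 0 (adjusted p = 0.041), in a fit that called 2.0% of all genes, against 0.854% in the main fit. The KO samples lay wholly above the controls for Pgk1, Eno1 and Pkm, an arrangement seen in 8.06% of all genes, and wholly below for no member, beside 9.74% of all genes. The 5 mesendoderm markers summed to between 47.4 and 98.9 CPM in the day 0 controls and between 11.7 and 16.2 CPM in the KO lines, and their part in these values was not tested.

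At day 2 the KO samples had more Pgk1 and Eno1 than the controls, and the other 8 members did not pass. All genes were called at 1.6%, 0.635% as higher and 0.963% as lower. The members' median log2 difference was 0.41, beside 0.02 over all genes, and 7 of 10 reached an unadjusted p below 0.05, beside 20.4% of all genes. DESeq2 called 3 members, beside 8.17% of all genes. Pgk1, which forms the first ATP of the pathway, was at 206, 205 and 245 CPM in the controls and at 287, 353 and 563 CPM in lines 14, 19 and 319. Its log2 difference was 0.84 ± 0.15 (adjusted p = 0.014 by edgeR). Eno1, which makes phosphoenolpyruvate, was at 812, 798 and 1009 CPM against 1212, 1966 and 1558 CPM, a log2 difference of 0.87 ± 0.19 (adjusted p = 0.035 by edgeR). All 3 KO samples were above all 3 controls for both genes, as they were for Gpi1, Pfkl and Pkm, an arrangement seen in 9.94% of all genes (11.7% for KO below).

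Both day 2 calls kept their direction in all 14 alternatives but not their side of the threshold. Pgk1 passed without line 14, without line 19 and without line 319, and without the day 2 sample of line 19. Those fits called more genes in general: 3.54%, 1.97%, 7.35% and 2.08% of all genes in that order, against 1.6% in the main fit. Pgk1 was lost in other settings. It did not pass without control replicate 1 (0.87, adjusted p = 0.16), replicate 2 (0.86, 0.18) or line 1A4 (0.69, 0.066). Within the HM1-derived lines alone the difference was 0.64 ± 0.15 (adjusted p = 0.070). Eno1 behaved likewise: it passed without any single KO line, and its adjusted p was 0.27, 0.27 and 0.14 without control replicates 1, 2 and 1A4, and 0.067 within the HM1-derived lines (difference 0.98). Without the term for genetic background neither passed (0.077 for Pgk1 and 0.10 for Eno1).

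The remaining members at day 2 had log2 differences between -0.33 for Hk1 and 0.50 for Ldha. Ldha was at 1370, 1292 and 1698 CPM in the controls and at 1497, 2709 and 1868 CPM in the KO lines (adjusted p = 0.17 by edgeR), and the high value is line 19. Pkm was at 2844, 2740 and 2826 CPM against 3392, 4265 and 3449 CPM (0.40 ± 0.14, adjusted p = 0.14 by edgeR, 0.030 by DESeq2). Hk2 and Pfkp differed by -0.01 each, with SEs of 0.16 and 0.25. The summed level of the 10 fibroblast markers at day 2 ran from 170 to 238 CPM in the controls and from 96.4 to 126 CPM in the KO lines, with Postn and Lum at 0 in the sample of line 19. Most of that gap was in the smooth muscle genes Acta2 (means 46.6 and 6.04 CPM) and Tagln (67.7 and 18.9 CPM), while Col1a2, Col3a1, Col6a3 and Dcn had higher means in the KO lines (Col1a2 20.3 and 22.8 CPM, Col3a1 9.39 and 12.4 CPM). The summed pluripotency markers ran from 1420 to 1550 CPM and from 1412 to 2284 CPM, with none of the 8 at 0. Their part in the Pgk1 and Eno1 differences was not tested.

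**Figure D4:**
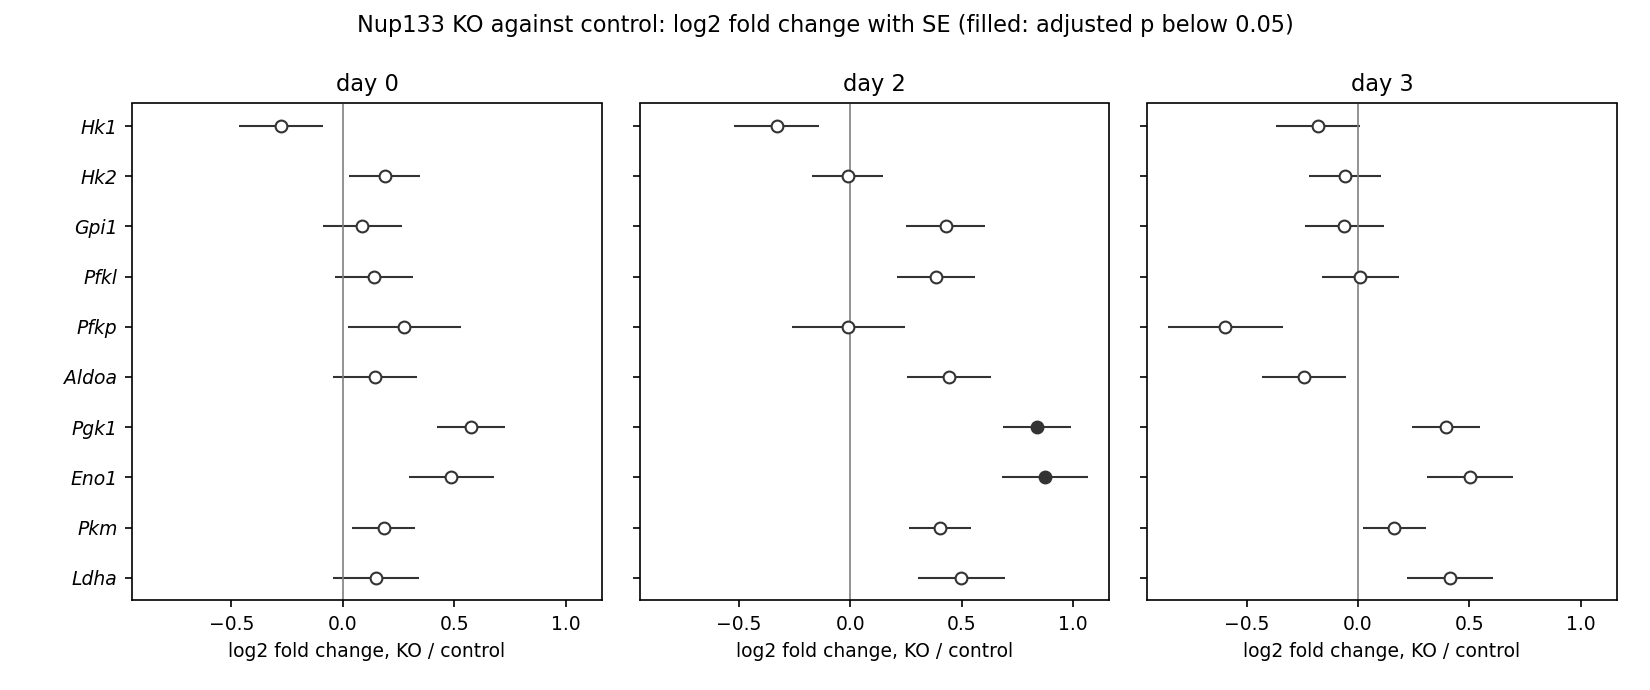
Log2 fold change of KO against control with SE for each enzyme at days 0, 2 and 3, filled where the adjusted p was below 0.05. Only Pgk1 and Eno1 at day 2 are filled, both between 0.8 and 0.9, and at day 3 the points lie on both sides of 0.

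At day 3 no member passed, while 5.19% of all genes did, 2.75% as higher and 2.44% as lower. At an unadjusted p below 0.05 there were 4 members (Pfkp, Pgk1, Eno1 and Ldha), beside 21.9% of all genes, and DESeq2 called 0, beside 11.3%. The median log2 difference was -0.02, and 5 of 10 were positive. Eno1 was at 625, 583 and 977 CPM in the controls and at 939, 739 and 1431 CPM in the KO lines (0.50 ± 0.19, adjusted p = 0.14 by edgeR). It passed without line 19 at day 2 (0.49, adjusted p = 0.017) and without line 19 at all days (0.63, 0.014). Those fits called 15.8% and 5.75% of all genes at day 3, against 5.19% in the main fit. Ldha, at 609, 591 and 948 against 918, 867 and 1040 CPM, had a difference of 0.41 ± 0.19 (adjusted p = 0.23) and passed without line 19 at day 2 (0.41, 0.017). Pgk1 alone lay wholly above the controls and Aldoa alone below, beside 17.6% of all genes in either direction. The summed fibroblast markers ran from 250 to 368 CPM in the day 3 controls and from 131 to 217 CPM in the KO lines, again mostly through Acta2 (means 69.5 and 7.33 CPM) and Tagln (109 and 29.1 CPM) with Col1a1 (81.3 and 48.1 CPM). Col3a1 went the other way (14.7 and 32.6 CPM), as did the means of Col6a3 and Dcn. The summed pluripotency markers ran from 618 to 722 CPM in controls and from 310 to 931 CPM in KO lines. Neural progenitor markers summed to between 292 and 347 CPM in controls and to 597, 894 and 261 CPM in lines 14, 19 and 319. Pax6 (means 30.2 and 179 CPM), Nes (170 and 296 CPM) and Sox1 (60.9 and 71.1 CPM) had higher means in the KO lines. Sox3 (44.4 and 32.1 CPM) and Hes5 (9.82 and 5.43 CPM) had lower ones. The part of these marker sets in the values of the members was not tested.

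Pfkp at day 3 went the other way in part of the lines. Lines 14 and 19 had 35.6 and 25.4 CPM against 56.8 and 60.7 CPM in the HM1 controls, while line 319 had 52.5 CPM against 46.9 CPM in line 1A4. The fitted difference was -0.59 ± 0.26 (adjusted p = 0.19 by edgeR), and it was -0.85 without line 319 (adjusted p = 0.028) and -0.95 within the HM1-derived lines (0.036). Those fits called 10.8% and 6.06% of all genes at day 3, against 5.19% in the main fit. A test of whether the KO effect differed between the backgrounds, added after the data had been seen, gave 1.11 ± 0.38 for Pfkp at day 3 (blastocyst-derived minus HM1-derived, adjusted p = 0.38) and 1.22 ± 0.38 at day 2 (adjusted p = 0.19). No member passed that test at any day, while 0.969%, 0.547% and 0.0219% of all genes did at days 0, 2 and 3.

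Line by line, each KO line was set against the controls of its own background. At day 0 and at day 2, 7 of 10 members were higher in all 3 lines, and at day 3, 4 were higher and 1 (Aldoa) lower in all 3. Of all genes, 19.6%, 16.9% and 27.1% were higher in all 3 lines at days 0, 2 and 3, and 20.3%, 19.0% and 26.7% lower. Eno1 was above 0 in every line and day, at 0.54, 0.45 and 0.48 (log2) in lines 14, 19 and 319 at day 0, 0.59, 1.29 and 0.63 at day 2, and 0.64, 0.29 and 0.55 at day 3. Pgk1 was always largest in line 319, at 0.92, 1.20 and 0.67, against 0.36, 0.48 and 0.27 in line 14 and 0.47, 0.78 and 0.25 in line 19. Hk1 was lower in lines 14 and 19 and slightly higher in 319 at each day (0.18, 0.06 and 0.06).

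Pgk1 is X-linked, and line 319 is the 1 line labelled XX. Over 672 X-linked genes the median log2 difference of line 319 from line 1A4 was 0.70, 0.57 and 0.49 at days 0, 2 and 3, and over 17570 autosomal genes it was -0.03 to 0.00. Lines 14 and 19, which are labelled XY, had X-linked medians between -0.33 (line 19 at day 2) and 0.15. The Pgk1 difference of line 319 was above this X-linked median at each day, and the Pgk1 differences of lines 14 and 19 were 0.25 to 0.78. At day 2 Pgk1 passed without line 319, in a fit that called 7.35% of all genes. It did not pass within the HM1-derived lines alone (0.64, adjusted p = 0.070 by edgeR). The part of the X chromosomes in the pooled Pgk1 difference was not tested. None of the 10 genes lies on chromosome 8 or 12, the extra chromosomes of line 319. Some of their near copies do: Pgk1-rs7 and the Pkm copy Gm17138 on chromosome 12 and the Gpi1 copy Gm1840 on chromosome 8. Their part in the values of line 319 was not tested.

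**Figure D5:**
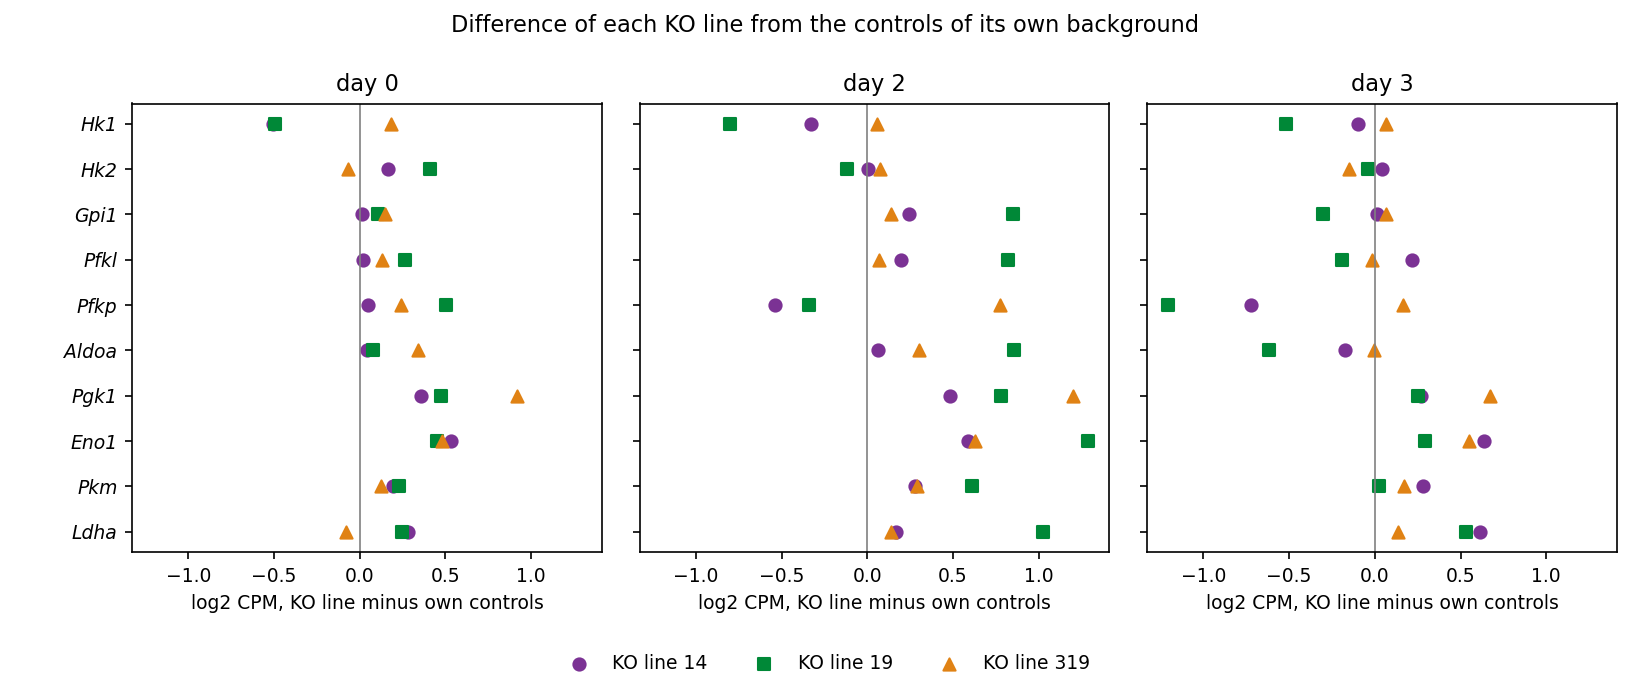
Log2 CPM of each KO line minus the mean of the controls of its own background (HM1 for lines 14 and 19, 1A4 for line 319), by gene and day. Eno1 and Pgk1 are right of 0 for all 3 lines at every day, and at day 2 line 19 is the rightmost for 6 genes, among them Eno1 and Ldha.

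Near-identical copies can share reads with some members. Eno1b, a protein-coding near copy of Eno1, aligned to it at 99.4% identity and had a mean of 179 CPM, and the summed copies stood at 18.9%, 20.1% and 20.7% of Eno1 in the controls and 15.9%, 15.5% and 15.4% in the KO lines at days 0, 2 and 3. How the reads were divided between Eno1 and Eno1b is not given in the sources used here, so the Eno1 values are uncertain to that extent. Eno1b itself was at 166, 166 and 188 CPM in the day 2 controls and at 232, 397 and 108 CPM in lines 14, 19 and 319, a log2 difference of 0.44 ± 0.34 (adjusted p = 0.49 by edgeR). Lines 14 and 19 lay above the controls for both genes, and line 319 was above for Eno1 and below for Eno1b. At days 0, 2 and 3 line 319 had the lowest Eno1b of any line (120, 108 and 122 CPM), beside 1372, 1558 and 1431 CPM of Eno1. The lower mean copy share of the KO lines thus rests on line 319. Copies of Gpi1 stood at no more than 2.88% of it, those of Ldha at 1.83% (11 copies), of Pkm at 0.205%, of Pgk1 at 0.107% and of Aldoa at 0.0209%. Both Pgk1 copies were 100% identical to it over 1252 bases or more, and how reads that fit several places were counted is not given in the sources used here, so a low copy count does not show that every such read stayed with its gene. Hk1, Hk2, Pfkl and Pfkp had none at 90% identity over 300 bases.

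Among the 20 other glycolytic enzymes, 16 were tested, and 0 passed between genotypes at day 0 and at day 2. Their median log2 differences were 0.02 and 0.10. With the line 19 day 2 sample left out, 1 was lower at day 0 and 2 at day 2. That fit called 2.0%, 2.08% and 15.8% of all genes between genotypes at days 0, 2 and 3. At day 3, 0 were higher and 2 lower in the KO lines (1 and 3 without line 19 at day 2): Aldoc, the brain-type aldolase, at 64.6, 63.0 and 45.7 CPM in controls against 26.2, 16.6 and 18.9 CPM (log2 difference -1.46 ± 0.26, adjusted p = 0.0076 by edgeR), and Ldhc, the testis-type lactate dehydrogenase, at 2.20 against 0.538 CPM on average (-1.99 ± 0.41, adjusted p = 0.014). Aldoc kept its call in 11 of 14 alternatives and lost it when any control replicate was left out (highest adjusted p = 0.083). Ldhc kept it in 9 (highest 0.14), and lost it when any control replicate or line 14 was left out and without the background term.

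Over time this list had calls in both directions. From day 0 to day 2 it had 3 higher and 2 lower in controls and 4 higher and 1 lower in KO lines. Pfkm rose by 1.45 and 1.29 (log2, adjusted p = 1.5e-05 and 3.4e-05 by edgeR), and Pgam1, the phosphoglycerate mutase, fell by 0.64 and 0.56 (0.0028 and 0.0069), with the Pgam1 call lost without line 1A4 in controls (0.052) and without line 14 in KO lines (0.066). Tpi1, the triosephosphate isomerase, rose in the KO lines from 453, 538 and 451 CPM to 525, 1128 and 592 CPM (0.64, adjusted p = 0.036), with line 19 setting the size: without that sample it was 0.21 (0.19). From day 2 to day 3 the counts were 2 higher and 3 lower in controls and 2 higher and 6 lower in KO lines, the last being 3 higher and 4 lower without line 19 at day 2. Hkdc1 rose in both genotypes, by 5.67 in controls and 5.16 in KO lines (log2, adjusted p = 0.00022 and 0.00046 by edgeR), and passed in all 14 alternatives. Its mean went from 0.107 to 5.58 CPM in the controls.

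Glucose and lactate transporters passed in 0 of 9 between genotypes at each of the 3 days, with median differences of 0.20, -0.01 and -0.23. From day 0 to day 2, 3 rose and 1 fell in controls and 5 rose and 1 fell in KO lines (3 and 2 without line 19 at day 2), and over the last day 3 rose and 0 fell, and 1 rose and 1 fell. Slc2a3, the high-affinity neuronal and embryonic glucose transporter, fell from 1230, 1363 and 1221 CPM to 534, 485 and 594 CPM in controls at day 2 (-1.25 ± 0.25, adjusted p = 0.0015 by edgeR), and rose again to 981, 1037 and 1463 CPM at day 3 (adjusted p = 0.0057), a call lost without any one control replicate (highest 0.081). In the KO lines the log2 change to day 2 was -2.03, and the level went from 486, 304 and 295 CPM at day 2 to 965, 655 and 1528 CPM at day 3 (adjusted p = 3.3e-05 and 0.00053). Slc2a1, the widely expressed glucose transporter, rose in KO lines from 718, 910 and 515 CPM to 2191, 2757 and 778 CPM at day 2 (1.38, adjusted p = 0.0029), with line 319 below lines 14 and 19, and without line 14 the adjusted p was 0.054. In controls it rose in the last day, from 968 to 1862 CPM (0.99, adjusted p = 0.031), in 8 of 14 alternatives.

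Of 17 genes that switch flux at the entry, the phosphofructokinase step and the pyruvate branch, 0 passed between genotypes at day 0, 1 was lower at day 2, and 1 was higher and 1 lower at day 3. Pdp2, a phosphatase that activates pyruvate dehydrogenase, was at 44.5, 47.4 and 45.6 CPM in the day 2 controls and at 33.9, 16.0 and 18.5 CPM in the KO lines (-1.01 ± 0.23, adjusted p = 0.043 by edgeR; 0.067 without line 19 at day 2), and at day 3 it differed by -0.91 (0.038). These calls held in 5 and 8 of 14 alternatives. Pdk3, a kinase that inhibits that complex, was higher at day 3 by 0.54 (adjusted p = 0.044), in 5 of 14. Both genes' 3 KO samples lay outside the control range at day 3, beside 17.6% of all genes wholly above the controls and 17.6% wholly below.

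Over time, Tigar, a fructose-bisphosphatase-like brake on glycolysis, fell by 1.04 in controls and 1.22 in KO lines from day 0 to day 2 (adjusted p = 1.0e-05 and 2.5e-06 by edgeR). Pdk1, a pyruvate dehydrogenase kinase, fell by 2.06 in the KO lines over the last day (adjusted p = 0.0010), and both results held in all 14 alternatives. In controls Pdk1 fell by 1.16 (0.038, in 9 of 14). The list had 2 higher and 7 lower in controls and 1 higher and 7 lower in KO lines at the first step, and 2 higher and 3 lower and 3 higher and 5 lower at the second. Without line 19 at day 2 the second step had 3 higher and 6 lower in controls and 4 higher and 8 lower in KO lines.

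Gluconeogenesis (5 of 7 tested) and the pentose phosphate pathway (9 tested) passed in 0 between genotypes at each day, and without line 19 at day 2 each list had 1 higher and 1 lower at day 3. In gluconeogenesis 2 rose and 1 fell in controls and 3 rose in KO lines to day 2, and 1 rose and 1 fell in each over the last day. Pck2, the mitochondrial form of phosphoenolpyruvate carboxykinase, rose by 2.31 in controls and 2.00 in KO lines to day 2 (adjusted p = 6.0e-05 and 0.00018 by edgeR) and fell by 1.29 and 1.62 to day 3 (0.0066 and 0.0011); the control fall was lost without control replicate 1 or 2. In the pentose phosphate pathway, which branches off after hexokinase, 0 passed in controls and 1 in KO lines at the first step, and 1 and 3 were lower at the second. Leaving out that line 19 sample made the control counts 3 higher and 1 lower at the first step and 4 lower at the second. The share of all genes called in controls rose with it, from 35.2% to 46.2% and from 21.4% to 32.2%. G6pdx, the entry enzyme, fell by 0.73 in controls (0.020) and by 0.77 in KO lines (0.011), the first being lost without control replicate 1 or 2 and without the background term.

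Of 21 hypoxia-inducible genes outside glycolysis, 0 passed between genotypes at day 0, and Vegfa alone passed at days 2 and 3. This growth factor of blood vessels was at 47.7, 50.2 and 46.0 CPM in the day 2 controls and at 20.3, 15.8 and 27.5 CPM in the KO lines (-1.18 ± 0.21, adjusted p = 0.012 by edgeR). At day 3 it was at 82.7, 84.6 and 84.4 CPM against 38.1, 43.9 and 50.4 CPM (-0.93 ± 0.21, 0.020). The KO samples lay wholly below the controls at both days, as did 11.7% and 17.6% of all genes at days 2 and 3. The Vegfa calls were lost without control replicate 1 or 2 (highest adjusted p = 0.17 and 0.16), and at day 3 also without line 14. Over the list, 13 of 21 differences were positive at day 2 (median 0.09) and 7 of 21 at day 3 (median -0.12). Any relation of these genes to the differences of the members was not tested. Single genes went both ways from day 0 to day 2. Kdm3a fell by 1.71 in controls and 1.54 in KO lines. Ak4 fell by 1.43 in controls and from a mean of 108 to 38.1 CPM in KO lines. Both passed in all 14 alternatives (adjusted p of 1.2e-05 or less by edgeR). Ddit4 rose by 1.16 in controls and 1.39 in KO lines (0.0068 and 0.0021, in 13 and 14 of 14). Fam162a rose by 1.45 in KO lines (0.0020, in all 14). The median of the list was -0.02 in controls and -0.05 in KO lines, with 4 higher and 6 lower and 5 higher and 4 lower (5 and 2 without line 19 at day 2). Without that sample, 1 gene more was higher between genotypes at day 2, and at day 3 the list had 1 higher and 2 lower.

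Of 13 transcription factors and other regulators of the pathway, 0 passed between genotypes at days 0 and 2, and 2 were higher at day 3. Myc was at 6.14, 7.01 and 10.1 CPM in the day 3 controls and at 30.1, 42.3 and 22.6 CPM in the KO lines, a log2 difference of 2.10 ± 0.28 (adjusted p = 0.0017 by edgeR). It held in 13 of 14 alternatives and missed without control replicate 2 (0.063). Its partner Max was at 45.5, 43.8 and 48.0 against 60.7, 65.9 and 74.2 CPM (0.54, adjusted p = 0.048, in 5 of 14). Leaving out the line 19 day 2 sample gave 1 higher at day 2 and 2 higher and 1 lower at day 3. Mycn changed by -2.11 in controls and -2.41 in KO lines (log2) over the last day (adjusted p = 0.00068 and 0.00020), and Epas1, which encodes HIF-2α, fell by 2.11 and 1.86 from day 0 to day 2 (0.00092 and 0.0022), each in all 14 alternatives.

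Across the 18 samples, Pkm followed the mean of the other 9 members most closely (Pearson r = 0.95 on standardised log2 CPM), with Aldoa at 0.90 and Ldha at 0.80, and Hk1 ran opposite at -0.43. Outside the list, the genes most like the members' mean were Eif2d (0.97), Rnaseh1 (0.95), Ankzf1 (0.95), C030006K11Rik (0.94) and Pmm1 (0.94). These correlations are descriptions over 18 samples that share lines, days and scaling. The sample of line 19 at day 2 is among them.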

How the data were processed

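Per the labels, polyA RNA was made into stranded TruSeq libraries; per the submitters' processing notes the tools were bcl2fastq 2.17.1.14, STAR 2.4.0k, SAMtools and HTSeq with build mm10, with settings, annotation release and use of strand not given in the sources used here. The authors deposited raw counts per Ensembl transcript, in which a read counts for each transcript it overlaps. The 4 technical libraries of a sample were summed (their chi-square per degree of freedom was at most 1.03), each gene was represented by its transcript with the highest total, and 108214 of 110379 identifiers matched GENCODE M21. Counts on unmatched identifiers (1.44% to 2.46% of a sample) were left out.

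The edgeR 4.0.16 quasi-likelihood test (TMM, filterByExpr, 6 groups plus a term for genetic background, 18 samples, 11 residual degrees of freedom) gave log2 changes, with Benjamini-Hochberg adjustment over 18273 genes and a threshold of 0.05. CPM are scaled by TMM. A test of whether the KO effect differs between backgrounds (6 residual degrees of freedom) was added after the data were seen. Alternatives used DESeq2 1.42.0 and limma 3.58.1; the fit was tested on simulated data. Copies were found with blastn 2.17.0.

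A line's samples at the 3 days come from the same cell line, which pairs them; their deviations correlated above 0.1 in 16 of 18 pairs of days. Numbers do not pair samples across genotypes. The members and gene lists were chosen with earlier results of these data known. Named genes were the members, Nup133, at most 5 called genes per list and comparison with the largest change and a mean of at least 1 CPM, and the 5 genes most like the members' mean; Eno1b and Pitrm1 were added as copy and neighbour after their values were seen. One gene of the lists is not reported here.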

Additional observations from a re-analysis of the deposited data

How the results depend on the processing

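Of 1400 values (10 members, 10 comparisons, 14 alternatives), 1344 kept their side of the threshold, 46 lost a call and 10 gained one. No called value changed sign; 55 values that passed in neither setting did. The number of members called between genotypes at day 0 was 0 and became 1 with DESeq2 and 1 without line 19 at day 2. At day 2 it was 2 and became 0 without the background term and 0 within the HM1-derived lines; at day 3 it was 0 and became 1 within the HM1-derived lines and 2 without line 19 at day 2. Leaving out 1 replicate series at a time gave 0 to 0 members at day 0, 0 to 2 at day 2 and 0 to 1 at day 3 between genotypes. It gave 2 to 3 (controls) and 2 to 3 (KO) from day 0 to day 2, 0 to 4 (controls) and 6 to 9 (KO) from day 2 to day 3, and 0 for the 3 differences of the KO effect between days. Leaving out any series, control or KO, leaves fewer samples to fit. At day 2, 0.119%, 0.135% and 0.62% of all genes were called between genotypes without control replicates 1, 2 and 3. Without KO replicates 1, 2 and 3 it was 3.54%, 1.97% and 7.35%, against 1.6% in the main fit. At days 0 and 3 the share without KO replicate 1 was lower: 0.173% against 0.854% and 2.49% against 5.19%. At day 0 the share without control replicate 3 was higher, at 1.3%. The cause of the lost calls was not tested. With the replicate block, 2 calls were lost, Hk2 in controls (adjusted p = 0.060) and Gpi1 in KO lines (0.083), both from day 2 to day 3, by edgeR; it changed no other call. For all genes, the share called between genotypes at day 3 moved from 5.19% to 15.8% without line 19 at day 2, to 11.3% with DESeq2, to 2.66% without a filter on low counts, and to 0.2% and 0.0919% without control replicates 1 and 2. At day 2 those replicates left out gave 0.119% and 0.135%, against 1.6%, so few genes of any kind were called in these settings, in which Pgk1 and Eno1 were also lost. What depth limits was not tested for the members.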
